A study of Homo sapiens with 12 samples.

Results

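Expression of the cereblon ubiquitin ligase and of its drug-induced substrates was examined in MM.1S cells, a line established from human multiple myeloma. The set holds 10 genes, listed by symbol for their place in the ligase. It comprises the drug receptor CRBN, the ligase subunits DDB1, CUL4A, CUL4B and RBX1, and the substrates IKZF1, IKZF3, ZFP91, CSNK1A1 and ZMYM2. The array annotation used here named a row for 5 of them, CRBN, CUL4A, CUL4B, IKZF1 and IKZF3, each with a single row, among 14884 named genes. The other 5 genes, DDB1, RBX1, ZFP91, CSNK1A1 and ZMYM2, were not analysed here.

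A total of 12 Affymetrix arrays were compared, 3 in each of 4 groups, after 24 h of treatment. The FPD cells were given filanesib at 1 nM, which blocks the mitotic kinesin KIF11, with 500 nM pomalidomide and 10 nM dexamethasone, a synthetic glucocorticoid. The PD cells received pomalidomide and dexamethasone at these doses. The F cells are labelled as given filanesib at 1 nM and dexamethasone at 10 nM, and control cells received vehicle. The titles and the shared protocol of the F arm name it by the letter F alone, without the D of the other arms, so its dexamethasone is uncertain. FKBP5, a glucocorticoid-induced gene, averaged 5.74 ± 0.30 in F against 5.57 ± 0.03 in control arrays (log2 expression, mean ± SD, n = 3 each), and its highest F value, 6.09, was that of replicate 1, the other F arrays having 5.56 and 5.58. FKBP5 averaged 7.25 ± 0.04 in FPD and 7.06 ± 0.12 in PD arrays (n = 3 each). KIF11 differed by 0.27 in F against control (limma adjusted p = 0.702). No group received pomalidomide without dexamethasone. Against control, the effects of both drugs on the genes below cannot be told apart. Against F they can be only if the F cells did receive dexamethasone. All cells were of 1 line, and the labels do not state whether a group's arrays stem from separate cultures. The p-values therefore refer to the spread of these arrays, and that spread may be technical.

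Cereblon is the substrate receptor of a ubiquitin ligase built on a CUL4 scaffold, with DDB1 as the adaptor that holds the receptor and RBX1 as the RING subunit that recruits the ubiquitin-conjugating enzyme. Pomalidomide binds cereblon and changes the surface it presents, so that proteins it would not otherwise bind, among them the lymphoid transcription factors Ikaros (IKZF1) and Aiolos (IKZF3), are ubiquitinated and degraded. Myeloma cells depend on Ikaros and Aiolos for the expression of IRF4 and MYC, and loss of CRBN is a known route to resistance. These steps act on protein. The arrays measured transcripts, and none of the values below is a level of protein.

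The values are log2 expression values normalized by RMA. Array medians lay between 4.23 and 4.27 over all rows, and between 5.36 and 5.45 over named genes. A gene was called changed at an adjusted p under 0.05 (limma on all 12 arrays, Benjamini-Hochberg adjustment over the 14884 genes), and "rose" and "fell" are used only for called changes. The plasma cell genes SDC1, IRF4, XBP1, SLAMF7 and MZB1 had means over the 12 arrays of 10.18 to 11.17, CD38 7.65 and CD27 4.34. The B cell genes PAX5 (4.75), BLK (4.84), BCL6 (4.41) and CD22 (4.11) lay low, and CR2 averaged 6.42. Of the myeloid genes, CD14 (3.48), CD163 (3.40), LYZ (2.87), MPO (4.35) and CSF1R (4.46) lay low, while CD68 averaged 9.40. The stromal and epithelial genes KRT18, KRT8, PECAM1 and EPCAM averaged 7.59, 5.78, 4.65 and 4.55. Of the T cell genes, CD4 (4.68) and CD2 (4.10) lay low and CD8A averaged 5.88, while CD28 (11.07) and TRAT1 (9.48) were high on all 12 arrays. CD68, a lysosomal protein gene used as a myeloid marker, rose by 1.53 in the arms with pomalidomide (limma adjusted p = 1.51e-10), and none of the other 5 measured myeloid genes was called there. The B cell gene CR2 fell by 1.09 and CD28 by 0.28 in the same contrast, and IRF4 and SLAMF7 fell among the 7 measured plasma cell genes. These marker calls are to be read against the 23.5% of all genes called in that contrast. The part of these markers in the results below was not tested, and in such bulk RNA fewer cells of a kind and less RNA per cell cannot be told apart. The mean of the 5 T cell genes was 6.87 to 7.09 in FPD, 7.02 to 7.18 in PD, 6.99 to 7.10 in F and 7.03 to 7.11 in control arrays.

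The sequences before a start site of CRBN and of IKZF1 are shown because the receptor gene and the gene of its main lymphoid substrate were both called higher under pomalidomide plus dexamethasone. Each is the 250 bases before 1 start site of the gene, the most upstream of those listed in the RefSeq promoter table (GRCh38.p14), written 5′ to 3′ on the coding strand. The CRBN window ends next to the annotated gene. The IKZF1 window lies within the annotated gene, whose first base is further upstream, so it is upstream of the listed start site alone. Capitals mark the Ikaros core motif GGGAA, searched on both strands.
CRBN, chr3:3179718-3179967, minus strand: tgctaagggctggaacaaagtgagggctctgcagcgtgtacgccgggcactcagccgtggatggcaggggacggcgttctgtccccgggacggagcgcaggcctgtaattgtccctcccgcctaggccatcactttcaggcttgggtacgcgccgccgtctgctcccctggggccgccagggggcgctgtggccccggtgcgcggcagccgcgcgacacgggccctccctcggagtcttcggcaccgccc
IKZF1, chr7:50304466-50304715, plus strand: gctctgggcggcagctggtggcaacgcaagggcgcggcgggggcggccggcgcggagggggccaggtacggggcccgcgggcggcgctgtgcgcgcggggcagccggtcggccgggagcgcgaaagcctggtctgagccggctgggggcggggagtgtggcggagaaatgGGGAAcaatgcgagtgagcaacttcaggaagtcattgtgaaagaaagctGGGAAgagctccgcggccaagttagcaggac

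The IKZF1 window held 2 matches to GGGAA and the CRBN window 0. The motif is short and was present in 59% of the 35116 windows of the table, searched over the same 250 bases. Over all windows of a gene, it occurred in 0 of 2 for CRBN, 2 of 3 for IKZF1, 2 of 4 for CUL4A and 3 of 4 for CUL4B. The full palindromic consensus of the glucocorticoid response element, searched likewise, occurred in none of these windows, and in 0.00285% of all windows. The core of the interferon-stimulated response element occurred in none of them and in 3.02% of all windows. IKZF3 had no entry in the promoter table.

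CRBN, the drug receptor, was higher in the arms that received pomalidomide plus dexamethasone, by about 1.25 times against control. Its log2 expression was 8.05, 8.25 and 8.18 in the FPD arrays, 8.19, 8.09 and 8.23 in the PD arrays, 7.79, 8.04 and 8.0 in the F arrays, and 7.88, 7.84 and 7.82 in the control arrays. Every FPD and PD array lay above every control and F array, and the lowest pomalidomide array (8.05) stood close to the highest F array (8.04). CRBN rose in PD against control by 0.33 on the log2 scale (95% interval 0.13 to 0.53, fold 1.25, limma adjusted p = 0.0255). It rose in FPD against control by 0.32 (0.12 to 0.52, fold 1.25, limma adjusted p = 0.0341). Against F, the FPD arrays differed by 0.22 (0.02 to 0.42, limma adjusted p = 0.156), and F differed from control by 0.099 (-0.10 to 0.30, limma adjusted p = 0.919).

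The rises of CRBN against control depended on single arrays. The PD call failed on leaving out control replicate 2 (limma adjusted p = 0.0682) or 3 (0.0721), or without PD replicate 1 (0.0678) or 3 (0.0865). The FPD call failed on leaving out control replicate 1 (limma adjusted p = 0.0662), 2 (0.0849) or 3 (0.087), or without FPD replicate 2 (0.136) or 3 (0.0984).

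**Figure D1:**
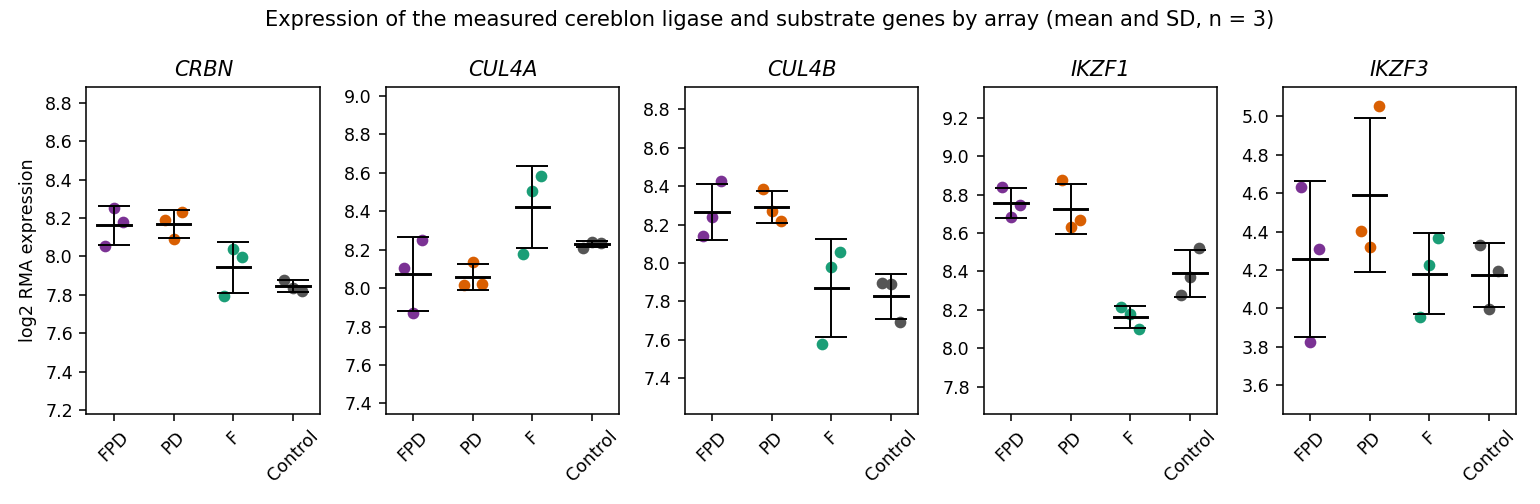
Log2 RMA expression (y axis, the same span of values in each panel) of CRBN, CUL4A, CUL4B, IKZF1 and IKZF3 in the FPD, PD, F and control groups (x axis). Points are single arrays, wide bars the mean of 3 arrays and whiskers the SD. The FPD and PD points lie above the F and control points for CRBN, CUL4B and IKZF1, whereas those of IKZF3 overlap in all groups.

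The paralogous scaffold genes CUL4A and CUL4B, which encode alternative cullins of the ligase, differed in direction: CUL4B rose in both pomalidomide arms, while CUL4A fell only in the contrast that averages those arms. CUL4B had values of 8.14, 8.24 and 8.43 in FPD, 8.39, 8.27 and 8.22 in PD, 7.58, 7.98 and 8.05 in F, and 7.89, 7.89 and 7.69 in control arrays. All 6 arrays with pomalidomide lay above the 6 without it. It rose in PD against control by 0.47 (95% interval 0.21 to 0.73, fold 1.38, limma adjusted p = 0.0152) and in FPD against control by 0.44 (0.18 to 0.70, fold 1.36, limma adjusted p = 0.0243). Without control replicate 3 both calls were lost (limma adjusted p = 0.0689 in PD and 0.0946 in FPD). The PD call was also lost without PD replicate 1 (0.0607), and the FPD call without FPD replicate 2 (0.0567) or 3 (0.119).

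CUL4B rose in FPD against F as well, by 0.39 (95% interval 0.14 to 0.65, limma adjusted p = 0.0409). F replicate 1 had the lowest CUL4B value of the 12 arrays. Without it the change was 0.25 (limma adjusted p = 0.181). The call was also lost without F replicate 2 (limma adjusted p = 0.0548), without FPD replicate 2 (0.0833) or 3 (0.177), with arrays centred on their medians (0.066), in the compared arrays alone (0.0663) and with all rows tested (0.121).

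CUL4A had values of 8.10, 7.87 and 8.25 in FPD, 8.02, 8.14 and 8.02 in PD, 8.18, 8.50 and 8.58 in F, and 8.21, 8.24 and 8.24 in control arrays. The PD arrays all lay below the control arrays, while the FPD arrays overlapped both control and F. None of its pairwise changes was called. They were -0.17 in PD against control (95% interval -0.42 to 0.07, limma adjusted p = 0.391), -0.16 in FPD against control (-0.40 to 0.09, limma adjusted p = 0.472) and -0.35 in FPD against F (-0.59 to -0.10, limma adjusted p = 0.0564). Without F replicate 1, the last of these passed the test (-0.47, limma adjusted p = 0.0118), and likewise without FPD replicate 3 (-0.43, limma adjusted p = 0.0366). It also passed with all 12 arrays when genes below the median mean were left out (limma adjusted p = 0.0277), with an intensity trend and robust fit (0.0377) and with arrays centred on their medians (0.0499).

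The difference CUL4B minus CUL4A was taken within each array and set to 0 at the control mean. It was 0.60 ± 0.17 in FPD, 0.64 ± 0.12 in PD, -0.15 ± 0.04 in F and 0.00 ± 0.12 in control arrays (log2, mean ± SD, n = 3 each). The lowest array with pomalidomide stood at 0.44 and the highest array without it at 0.087, so these arrays did not overlap. The pair was singled out after its values were seen, and the difference was not tested.

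**Figure D2:**
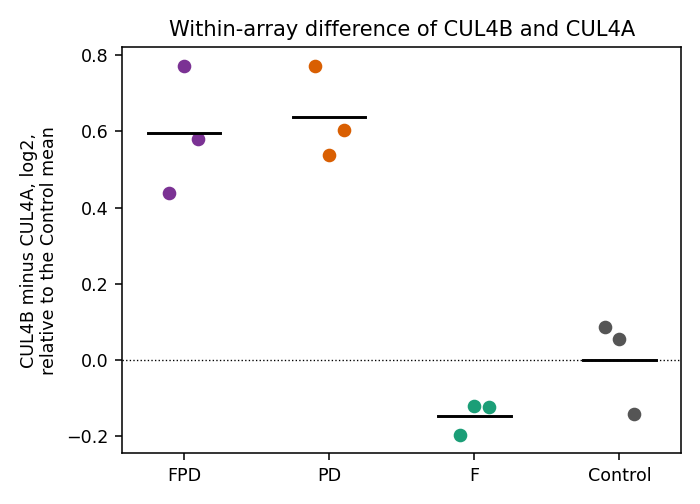
Within-array difference of CUL4B and CUL4A (y axis, log2, set to 0 at the control mean) in the FPD, PD, F and control groups (x axis). Points are arrays and bars the mean of 3. The FPD and PD arrays lie between 0.44 and 0.77, the F and control arrays between -0.20 and 0.087.

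IKZF1, which encodes Ikaros, had values of 8.84, 8.68 and 8.74 in FPD, 8.87, 8.63 and 8.67 in PD, 8.21, 8.18 and 8.10 in F, and 8.28, 8.37 and 8.52 in control arrays. The pomalidomide arrays were again above all others, and the F arrays were below the control arrays. The transcript thus rose in cells given the drug that targets its protein together with dexamethasone. Against control, the effects of these drugs on it cannot be told apart. The change was 0.33 in PD against control (95% interval 0.13 to 0.54, fold 1.26, limma adjusted p = 0.0273) and 0.37 in FPD against control (0.16 to 0.57, fold 1.29, limma adjusted p = 0.0192). Against F, FPD rose by 0.59 (0.39 to 0.80, fold 1.51, limma adjusted p = 0.000559), a call kept in all 20 alternative settings that gave this comparison.

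Against control, the IKZF1 calls were less stable across arrays and settings. The PD call failed on leaving out control replicate 1 (limma adjusted p = 0.112) or 2 (0.0768), without PD replicate 1 (0.122), with arrays centred on their medians (0.0579) and in a fit of the compared arrays alone (0.0744). The FPD call failed on leaving out control replicate 1 (limma adjusted p = 0.0912) or 2 (0.0578) and without FPD replicate 1 (0.0857) or 3 (0.0525). F differed from control by -0.23 (95% interval -0.43 to -0.02, limma adjusted p = 0.776). The F and control arrays of IKZF1 did not overlap, which held for 10% of all genes and 1 of the 5 members in that comparison.

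IKZF3, which encodes Aiolos, could not be followed in the same way. Its row had values of 4.63, 3.82 and 4.31 in FPD, 4.40, 4.32 and 5.05 in PD, 3.95, 4.22 and 4.37 in F, and 4.33, 4.0 and 4.20 in control arrays. These lay close to the array medians over all rows and below those over named genes, with no measure of background to set them against. The groups overlapped, and the spread within FPD (SD 0.41) and PD (SD 0.40) was wide. The change in PD against control was 0.42 (95% interval -0.01 to 0.84, limma adjusted p = 0.196), and in FPD against control 0.08 (-0.34 to 0.50, limma adjusted p = 0.871). Without PD replicate 3, which held the highest value, the PD change was 0.19 (limma adjusted p = 0.609).

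Among the measured members, 3 of 5 rose in PD against control and none fell, with a median log2 change of 0.33, against -0.0027 over all genes. In that comparison 6.84% of all genes rose, 8.63% fell and 15.5% were called in either direction. The PD and control arrays did not overlap in 4 of 5 members, as in 29% of all genes. In FPD against control the same 3 genes, CRBN, CUL4B and IKZF1, rose (median of the 5 members 0.32, against -0.016 over all genes), where 7.26% of all genes rose, 5.89% fell and 13.1% were called. The FPD and control arrays did not overlap in these 3, as in 29.9% of all genes. In FPD against F, 2 of 5 rose, where 7.5% of all genes rose, 6.64% fell and 14.1% were called, with a median of 0.22 against -0.0075 over all genes. The FPD and F arrays did not overlap in 3 of 5 members, as in 30.3% of all genes. The PD and FPD comparisons share the control arrays, and both FPD comparisons share the FPD arrays, so they do not count as separate evidence.

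**Figure D3:**
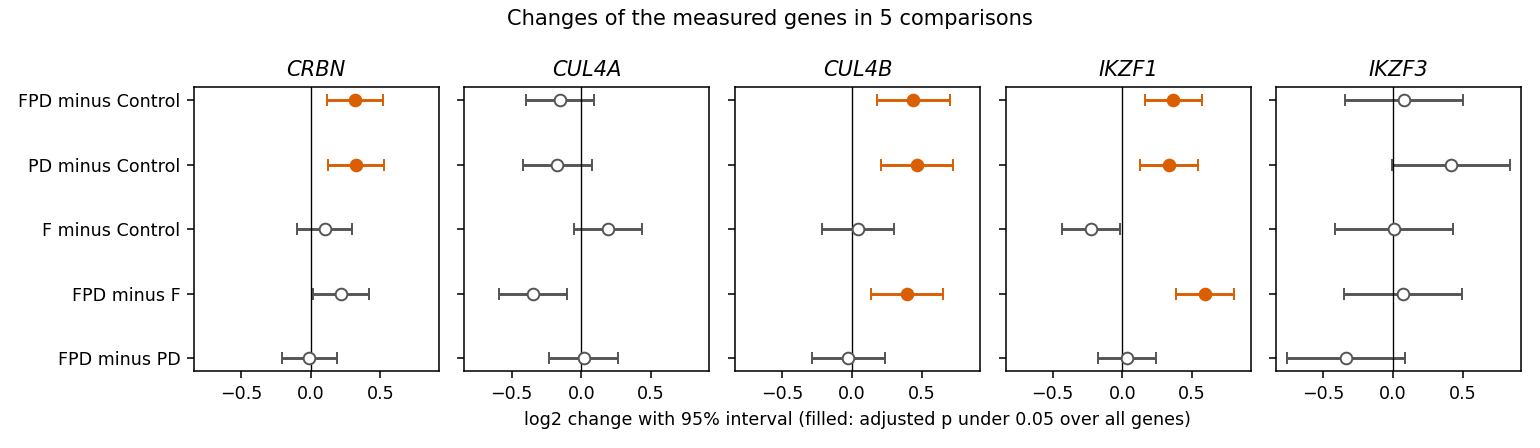
Log2 changes (x axis, with 95% intervals from limma) of the 5 measured genes in 5 comparisons (rows). Filled points passed an adjusted p under 0.05 over all genes. CRBN, CUL4B and IKZF1 are filled in both comparisons of a pomalidomide arm with control, CUL4B and IKZF1 also in FPD against F, and no point is filled for F against control or FPD against PD.

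Adding filanesib to pomalidomide plus dexamethasone left no called change in these genes. FPD differed from PD by -0.0097 for CRBN (95% interval -0.21 to 0.19), 0.016 for CUL4A (-0.23 to 0.26), -0.025 for CUL4B (-0.28 to 0.23), 0.031 for IKZF1 (-0.18 to 0.24) and -0.34 for IKZF3 (-0.76 to 0.09). The intervals of the first 4 exclude changes of more than about 0.29 either way, and do not show that the arms are alike. Over all genes, 0.0336% were called in this comparison and 0.00672% in F against control, where likewise 0 of the 5 members passed (limma). In F against control, 1 of the 5 members, IKZF1, had an unadjusted p under 0.05 (limma), as had 895 of all 14884 genes. The departure from additivity, that is, the FPD-to-PD difference less the F-to-control difference, was highest for IKZF1 (0.26, 95% interval -0.03 to 0.55, limma adjusted p = 0.888). For the other members it lay between -0.34 and -0.071. No gene of the table was called for it (0%, limma), while 833 had an unadjusted p under 0.05. If the F cells did receive dexamethasone, F differed from control by filanesib and dexamethasone, and FPD from PD by filanesib alone. The departure would then also hold an effect of dexamethasone.

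Averaging both pomalidomide arms against both arms without pomalidomide uses 6 arrays on each side and gave narrower intervals. Both pomalidomide arms also received dexamethasone, and control cells did not. This contrast, referred to as the pomalidomide contrast, may therefore also hold an effect of dexamethasone, whether or not the F cells received it. In this contrast IKZF1 rose by 0.46 (95% interval 0.32 to 0.61, fold 1.38, limma adjusted p = 9.48e-05), CUL4B by 0.43 (0.25 to 0.61, fold 1.35, limma adjusted p = 0.00138) and CRBN by 0.27 (0.13 to 0.41, fold 1.21, limma adjusted p = 0.00592). Each of these 3 calls was kept in all 19 alternative settings. CUL4A fell by 0.26 on the log2 scale (interval -0.43 to -0.09, limma adjusted p = 0.0284), but 8 of 19 settings lost that call, and its arrays overlapped. The change of IKZF3 was 0.24 (-0.05 to 0.54, limma adjusted p = 0.257). In all, 3 of 5 members rose and 1 fell, where 11.3% of all genes rose, 12.2% fell and 23.5% were called. In CRBN, CUL4B and IKZF1 the arrays of both sides did not overlap, which held for 13.6% of all genes. With both filanesib arms averaged against the others, 0 of 5 members passed (limma, 0.43% of all genes called). An unadjusted p under 0.05 was had by 0 of 5 members and 1275 of all 14884 genes (limma). If the F cells did receive dexamethasone, this contrast is not one of filanesib alone, since control cells had neither drug.

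Without F replicate 1, which stood apart for FKBP5 and CUL4B, the pomalidomide contrast was 0.48 for IKZF1 (limma adjusted p = 0.000238), 0.36 for CUL4B (0.00257), 0.23 for CRBN (0.0162) and -0.32 for CUL4A (0.00552). All 4 calls held.

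The order of group means was FPD, PD, control, F for IKZF1, with FPD and PD within their spread. For CRBN and CUL4B it was PD, FPD, F, control, and in both genes PD and FPD, and likewise F and control, lay within their spread. CUL4A ran in the order F, control, FPD, PD. Its FPD and PD means again lay within their spread, and its control arrays overlapped with those of F and of FPD. IKZF3 had PD highest, then FPD, F and control, and no neighbouring groups differed beyond their spread.

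A row annotated to ZFP91-CNTF, a readthrough transcript that joins the substrate gene ZFP91 to its neighbour CNTF, lies outside the set and cannot stand for ZFP91. It had values of 8.85, 8.92 and 9.0 in FPD, 8.98, 8.84 and 8.83 in PD, 9.17, 9.15 and 9.16 in F, and 8.99, 9.16 and 8.97 in control arrays. The FPD arrays lay below the F arrays, and PD and control overlapped. In the pomalidomide contrast it fell by 0.20 on the log2 scale (limma adjusted p = 0.0313), a call lost in 10 of 19 alternative settings.

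The surroundings of the ligase were examined in the same pomalidomide contrast, with lists of genes drawn up by function. Among 25 measured accessory factors, ubiquitin-conjugating enzymes and alternative substrate receptors of CUL4 ligases, 4 rose and 6 fell (median 0.04, against -0.0057 over all genes), a share to be read against the 23.5% of all genes called. Without 1 array in turn, the count that rose ranged from 2 to 6 and the count that fell from 4 to 7. The changes with the greatest size were those of receptors that compete with cereblon for the DDB1 adaptor. WDTC1 rose by 0.70 (fold 1.63, limma adjusted p = 2.06e-05) and DCAF6 by 0.64 (fold 1.56, limma adjusted p = 3.92e-06). DCAF1, the receptor used by the Vpr protein of HIV, fell by 0.70 on the log2 scale (limma adjusted p = 2.4e-05), and DTL, the receptor that removes the licensing factor CDT1 during replication, fell by 0.60 (limma adjusted p = 1.29e-05).

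These 4 receptors were picked for the size of this contrast, so their levels by arm are a description. DCAF6 averaged 8.31 ± 0.01 in FPD, 8.23 ± 0.05 in PD, 7.68 ± 0.10 in F and 7.58 ± 0.18 in control arrays (n = 3 each). WDTC1 averaged 9.09 ± 0.06 in FPD, 9.05 ± 0.11 in PD, 8.24 ± 0.27 in F and 8.50 ± 0.18 in control arrays, and its contrast was 0.46 as the mean of its rows. DCAF1 averaged 8.34 ± 0.16 in FPD, 8.31 ± 0.27 in PD, 8.99 ± 0.15 in F and 9.06 ± 0.06 in control arrays. DDA1, a subunit bound to DDB1 in CUL4 ligases, fell by 0.24 (limma adjusted p = 0.015), and CAND1, the exchange factor that strips substrate receptors from cullins, fell by 0.20 (limma adjusted p = 0.0391).

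Cullin ligases are switched on by attachment of NEDD8 and switched off by the COP9 signalosome. Of 13 measured genes of these systems, 1 rose and 3 fell (median -0.08), where 11.3% of all genes rose and 12.2% fell. Without 1 array in turn, 0 to 1 rose and 2 to 3 fell. NAE1, a subunit of the enzyme that activates NEDD8, fell by 0.42 (95% interval -0.58 to -0.27, limma adjusted p = 0.000392), with means of 8.96 ± 0.08 in FPD, 8.79 ± 0.07 in PD, 9.34 ± 0.16 in F and 9.26 ± 0.14 in control arrays (n = 3 each). The signalosome subunit COPS3 fell by 0.26 (limma adjusted p = 0.00868) and COPS9 rose by 0.23 (limma adjusted p = 0.0392), and the COPS9 call was lost in 10 of 19 settings. The NEDD8 protease gene SENP8 had a change of 0.18 (limma adjusted p = 0.178).

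All 6 other cullin genes were measured, and 2 rose and 2 fell (median -0.09), against 23.5% of all genes called. Without 1 array in turn, 1 to 2 of them rose. CUL7 rose by 0.38 (limma adjusted p = 0.00241) and CUL9 by 0.28 (0.0317, lost in 9 of 19 settings). CUL1, the scaffold of the SCF ligases, fell by 0.48 (limma adjusted p = 5.51e-05), with means of 10.01 ± 0.10 in FPD, 9.95 ± 0.10 in PD, 10.43 ± 0.08 in F and 10.48 ± 0.09 in control arrays. CUL2, the scaffold of the VHL ligase, fell by 0.25 (limma adjusted p = 0.00677).

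Of 17 measured genes whose proteins cereblon binds in the presence of one or another of its drugs, 4 rose and 2 fell (median 0.01), 6 of 17 against the 23.5% of all genes called. ZNF827 rose by 0.51 (fold 1.42, limma adjusted p = 0.00072) and ZBTB16, which encodes the zinc finger factor PLZF, by 0.41 (limma adjusted p = 0.00932). ZBTB16 had means of 4.47 ± 0.36 in FPD, 4.67 ± 0.25 in PD, 4.22 ± 0.06 in F and 4.09 ± 0.07 in control arrays. These lay near the array medians over all rows and below those over named genes. PATZ1 fell by 0.48 (limma adjusted p = 0.0008), as did GSPT1, a translation termination factor, by 0.33 (limma adjusted p = 0.000963). In the Ikaros family, IKZF4 rose by 0.30 (limma adjusted p = 0.0144), with means of 5.30 in FPD and PD, 4.98 in F and 5.01 in control arrays. IKZF2 had a change of 0.01 (95% interval -0.13 to 0.15, limma adjusted p = 0.938) and lay below the array medians at 3.61.

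Of 4 measured genes whose proteins are reported to bind cereblon without a drug, 1 rose and 1 fell, against the 23.5% of all genes called. GLUL, which encodes glutamine synthetase, rose by 0.41 (fold 1.33, limma adjusted p = 0.000192). MEIS2, a homeobox factor, fell by 0.25 (limma adjusted p = 0.0472), a call lost in 13 of 19 settings. APP had a change of -0.043 (limma adjusted p = 0.697) and BSG of 0.15 (limma adjusted p = 0.131).

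The last list held genes reported to lie downstream of Ikaros and Aiolos in myeloma. Of 10 measured, 4 rose and 3 fell in the pomalidomide contrast (median 0.08), where 11.3% of all genes rose and 12.2% fell. IRF4 fell by 1.17 (limma adjusted p = 2.2e-09) and had means of 10.09 ± 0.03 in FPD, 10.21 ± 0.13 in PD, 11.21 ± 0.03 in F and 11.44 ± 0.06 in control arrays (n = 3 each). MYC fell by 0.62 (limma adjusted p = 1.52e-06). The interferon-inducible exonuclease gene ISG20 rose by 1.49 (fold 2.81, limma adjusted p = 1.65e-09) and IFIT3 by 1.18 (limma adjusted p = 3.92e-06), and IFIT3 averaged 5.20 in FPD, 5.06 in PD, 4.09 in F and 3.82 in control arrays, the F and control means lying below the array medians. The list was drawn up with earlier results of these arrays known.

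**Figure D4:**
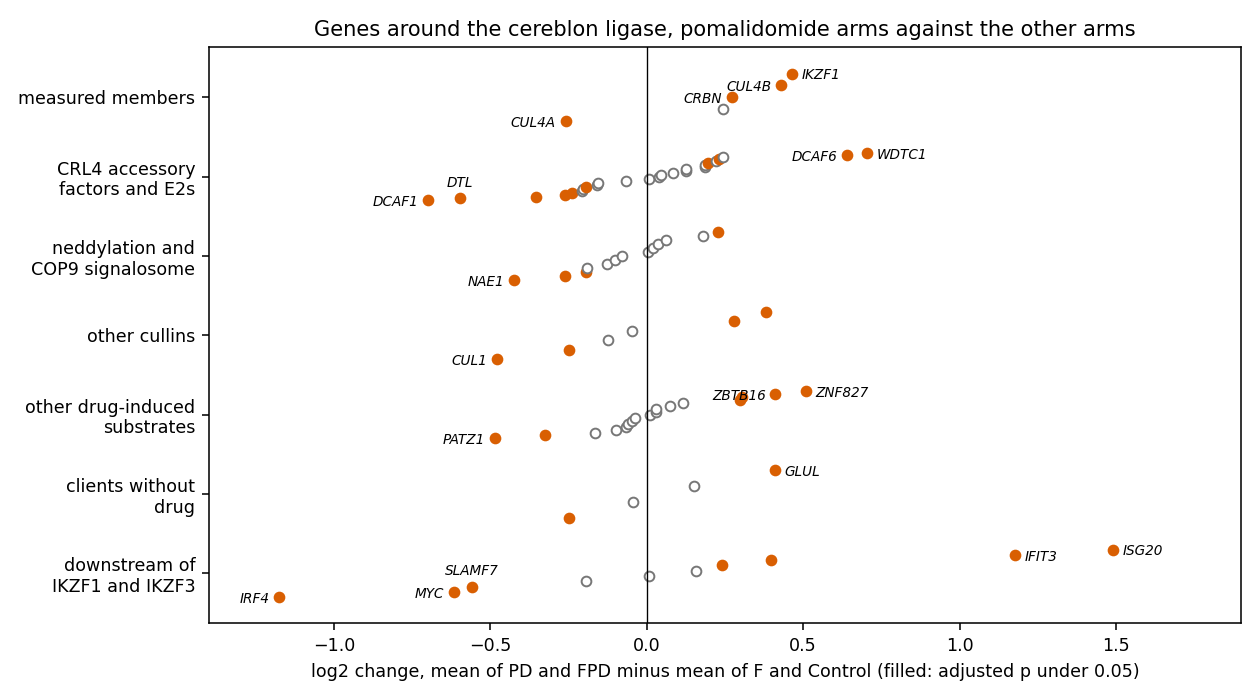
Log2 change in the mean of PD and FPD minus the mean of F and control (x axis) for the 5 measured members and 6 lists of related genes (rows). Each point is a gene, and filled points passed an adjusted p under 0.05 over all genes. CRBN, CUL4B and IKZF1 lie to the right and CUL4A to the left, and every list other than the members also holds filled points on both sides.

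The genes whose profile over the 12 arrays was most like that of each called member were ranked by Pearson correlation among 7441 genes with a mean above the median gene. For IKZF1 these were UBE2H (r = 0.984), ERN1, MTMR10, DHTKD1 and KLHL6 (r = 0.973), and 161 genes had r above 0.9. CRBN was followed by GAS2 (r = 0.962), CTSS, KRCC1, DRAM2 and STX8 (r = 0.947), with 62 genes above 0.9. CUL4B was followed by BIRC2 (r = 0.967), TRMT1L, KIFAP3, LMBRD1 and CCDC125 (r = 0.944), with 40 genes above 0.9. CUL4A had the fewest close profiles, 5 above 0.9, led by DAP3 (r = 0.927), ERI1, NUP85, USP16 and ZNG1C (r = 0.904). These values include shifts between arms that such genes have in common with the member, and are a description of 12 arrays.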

How the data were processed

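The deposited log2 values are RMA output of Affymetrix Expression Console, a statement taken from the submitters' processing notes. The sources used here give no version, setting or genome build. RMA brings all arrays to a common distribution, so a change in total RNA per cell would not show, and it compresses low signals. Genes were named through the array annotation, in which 16098 of 53617 rows carried 1 symbol and the other 37519 did not. Where a gene had several rows, the row of the highest mean stood for it. No filter on expression was applied, and 4 of the 5 measured members lay above the median gene mean.

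Group means were fitted with limma 3.58.1 in R 4.3.3 to all 12 arrays (lmFit, eBayes, 8 residual degrees of freedom). The 8 contrasts were 5 pairwise comparisons, 2 averages over arms and the departure from additivity. Tests were two-sided. The fit of PD against control was tested on simulated data. Alternatives are given in the closing section. The members and lists were chosen with earlier results of these data known. Named were all members, the 2 highest and 2 lowest genes of each list in the pomalidomide contrast, the 5 nearest profiles per called member, and FKBP5 as a check. KIF11 was a further check, and TSC22D3 was not analysed here. DDA1, CAND1, IKZF2, IKZF4, the marker genes and the readthrough row were named outside this rule, after their values were seen. The deviations of arrays with the same replicate number correlated weakly (r from -0.26 to 0.16 over 18 pairs, above 0.1 in 5 of them). The numbers were therefore not taken to pair the arrays. The number of arrays limits the precision.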

Additional observations from a re-analysis of the deposited data

How the results depend on the processing

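Over the 40 changes of the 5 members (8 contrasts) and up to 20 alternative settings each, 697 values kept direction and call, 45 lost the call and 5 gained one. In 30 the sign turned, and none of these belonged to a called change. Only 12 of the 40 changes were called, and all 45 losses fell on these. The 697 include uncalled changes that stayed uncalled, and settings that left out an array outside the comparison. With all 53617 rows tested and adjusted together, 0 members were called in PD against control, 0 in FPD against control and 1 in FPD against F, against 3, 3 and 2. The same setting called 5775 of 53617 rows in the pomalidomide contrast, against 3504 of 14884 genes (23.5%). In FPD against F, 1 member was called with the replicate block and 1 in the compared arrays alone, IKZF1 in both, since CUL4B missed the threshold (limma adjusted p = 0.0538 with the replicate block). Of the 65 changes of named genes fitted with the replicate block, 34 were called without it and 32 of these also with it, CUL4B in FPD against F and MEIS2 in the pomalidomide contrast being lost, and none was gained. It also gave 0 genes against 5 in FPD against PD, and 0 against 1 in F against control. Without 1 array in turn, members called ranged from 0 to 3 in PD against control and in FPD against control, 1 to 2 in FPD against F, and 3 to 4 in the pomalidomide contrast. The genes called in FPD against PD ranged from 0 to 15 without 1 array and from 0 to 94 over the other settings, in F against control from 0 to 2 and from 0 to 32. The counts of 94 and 32 are rows out of 53617, from the setting with all rows tested. In the filanesib contrast the genes called ranged from 24 to 64 without 1 array, and 216 of 53617 rows were called with all rows tested. Of the 25 accessory genes, 8 rose among genes above the median mean, 7 with quantile normalization and 2 with median centring, against 4. The first of these settings left out DCAF13, whose mean of 4.70 lay below the median gene mean of 5.39.

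The sign turned in FPD against PD after quantile normalization for CUL4A (-0.046) and IKZF1 (-0.026), and after median centring for CRBN (0.016) and CUL4B (0.00072). Quantile normalization also turned CUL4B in the filanesib contrast (-0.023) and APP in the pomalidomide contrast (0.034). Leaving out 1 array, FPD against PD ranged from -0.055 to 0.044 for CRBN, -0.071 to 0.118 for CUL4A, -0.104 to 0.039 for CUL4B and -0.016 to 0.106 for IKZF1. CUL4B ranged from -0.035 to 0.083 in the filanesib contrast, -0.046 to 0.191 in F against control and -0.216 to 0.021 for the departure from additivity. IKZF3 ranged from -0.086 to 0.121 in F against control, -0.107 to 0.296 in FPD against control and -0.114 to 0.289 in FPD against F. The causes were not tested.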

Other observations

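After subtraction of group means, CUL4A and CUL4B correlated at r = 0.70 over the 12 arrays and CRBN and CUL4B at r = 0.69. CRBN and CUL4A gave r = 0.22, and CRBN and IKZF1 r = -0.34. The group differences ran the other way for the paralogs, with r = -0.33 for CUL4A and CUL4B over the 12 arrays without that subtraction. The deviation of F replicate 1 from the F mean was -0.24 for CUL4A, -0.29 for CUL4B, -0.15 for CRBN and 0.05 for IKZF1. These are descriptions of 12 arrays, which share their normalization, and no test was made.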
